A study of Rattus norvegicus with 32 samples.

Results

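Translation initiation factors, the proteins that bring the ribosome, the initiator tRNA and the messenger RNA together, were measured in the left ventricle of septic rats with and without landiolol. They were taken as the array probes whose gene name begins with Eif1 to Eif6, together with the 4E-binding protein genes (Eif4ebp), while the eIF2 kinases (Eif2ak) and Eif2s3y were left out. This gave 81 of the 45598 probes on the array, standing for 50 of the 34912 different gene names in the files. The 32 Wistar rats were young adults, and their hearts were taken 20 h after sham surgery or after cecal ligation and puncture (CLP), a surgical model of abdominal sepsis. In each sex, 5 sham, 5 CLP and 6 CLP plus landiolol rats were hybridised, 1 array per rat, on 1-colour Agilent arrays. Landiolol, which blocks the β1-adrenergic receptor for a short time, was infused in saline from soon after CLP, whereas the other groups received saline alone. Every rat was given buprenorphine for pain. The animals came from an earlier in vivo experiment and the hearts had been perfused ex vivo on a Langendorff apparatus before freezing, so no group represents a heart frozen directly from the animal.

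In cap-dependent initiation, eIF4E binds the cap at the 5′ end of a messenger RNA, the scaffold eIF4G and the RNA helicase eIF4A join it, and the resulting complex recruits a small ribosomal subunit that carries eIF3, eIF1, eIF1A and the initiator tRNA held by eIF2. The 4E-binding proteins compete with eIF4G for eIF4E, and the kinase complex mTORC1 phosphorylates them and so releases eIF4E. Phosphorylation of eIF2 blocks its exchange factor eIF2B, which lowers general initiation and favours a few messengers such as that of the transcription factor ATF4. In heart muscle this machinery sets how fast proteins are made during growth, fasting and stress. The arrays report messenger RNA, so neither phosphorylation nor protein synthesis was measured.

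Levels below are log2 array signals after quantile normalisation within a sex, and an effect is the difference between the means of 2 groups on that scale. Signals of different probes are not comparable with each other, and sex coincided with the slide, since males lay on 2 slides and females on the other two. The rats of a group are numbered in the order of deposit, and these numbers only name them. A probe was used if the scanner software set it well above background in 80% or more of the rats of some group of that sex. This kept 76 member probes and 49 member genes in each sex, against 19737 genes in all in males and 19473 in females. Only Eif4e1b, an eIF4E paralogue, was lost, and its 3 probes were well above background on at most 1 array of any group. Where a gene had several probes, the one brightest on average represented it. A gene passed the test at a false discovery rate (FDR) of 1% against sham and of 5% between the septic groups (limma, Benjamini-Hochberg over all probes).

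The probes behind the genes that passed are shown first, because the array reads only these 60 bases of each messenger. They are given in the sense of the transcript with their positions in build rn4, as named in the file headers. Capitals mark AATAAA, the letters of the usual polyadenylation signal, searched on this strand only. It occurred in 9 of the 81 member probes (11.1%) and in 9.04% of all probes.
Eif4ebp1, chr16:69110542-69110601, minus strand: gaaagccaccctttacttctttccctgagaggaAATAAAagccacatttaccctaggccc
Eif1a, chr18:40820149-40820208, plus strand: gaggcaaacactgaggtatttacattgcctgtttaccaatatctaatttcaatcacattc
Eif1a, other probe, chr18:40819356-40819415, plus strand: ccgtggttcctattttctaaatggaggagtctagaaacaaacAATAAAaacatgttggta
Eif4e3, chr4:134471207-134471266, minus strand: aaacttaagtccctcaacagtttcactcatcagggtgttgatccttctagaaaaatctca
Eif4a1, chr10:56484539-56484598, minus strand: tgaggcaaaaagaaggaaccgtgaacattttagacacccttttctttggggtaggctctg
Eif4b, chr7:140836423-140836482, plus strand: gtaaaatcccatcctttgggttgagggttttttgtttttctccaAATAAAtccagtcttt
Eif1ad, chr1:208014203-208014262, plus strand: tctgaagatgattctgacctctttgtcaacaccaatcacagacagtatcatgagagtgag
Eif4ebp1 and Eif4b were each read from 10 replicate spots and the other probes shown from 1. No probes of different member genes shared a run of 20 or more bases. Some gene names are uncertain all the same: both Eif3i probes lie on chromosome 2 of rn4 and an Eif6 probe on chromosome 14, whereas RefSeq places these genes on chromosomes 5 and 3, so near-identical copies cannot be told apart there. Eif6-ps1, named in the male files only, is a pseudogene. Eif1a on chromosome 18 and Eif1ax on the X chromosome encode closely related proteins.

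Few initiation factors changed strongly after CLP, and the changes were led by a repressor. In males, 4 of the 49 genes rose and 0 fell: Eif4ebp1, Eif1a, Eif4a1 and Eif4b. This was 8.16% of the members, where 3.95% of all genes rose and 4.27% fell. In females, 2 genes rose, Eif4ebp1 and Eif1a, and 1 fell, Eif4e3. These were 4.08% and 2.04% of the members, where 1.89% of all genes rose and 1.88% fell. CLP plus landiolol against sham shares its sham arrays with this comparison. There, 3 members rose in males and 0 fell (6.12% of the members, against 2.51% of all genes higher and 1.87% lower), and in females 3 rose and 1 fell (6.12% and 2.04%, against 3.12% and 2.37% of all genes).

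**Figure D1:**
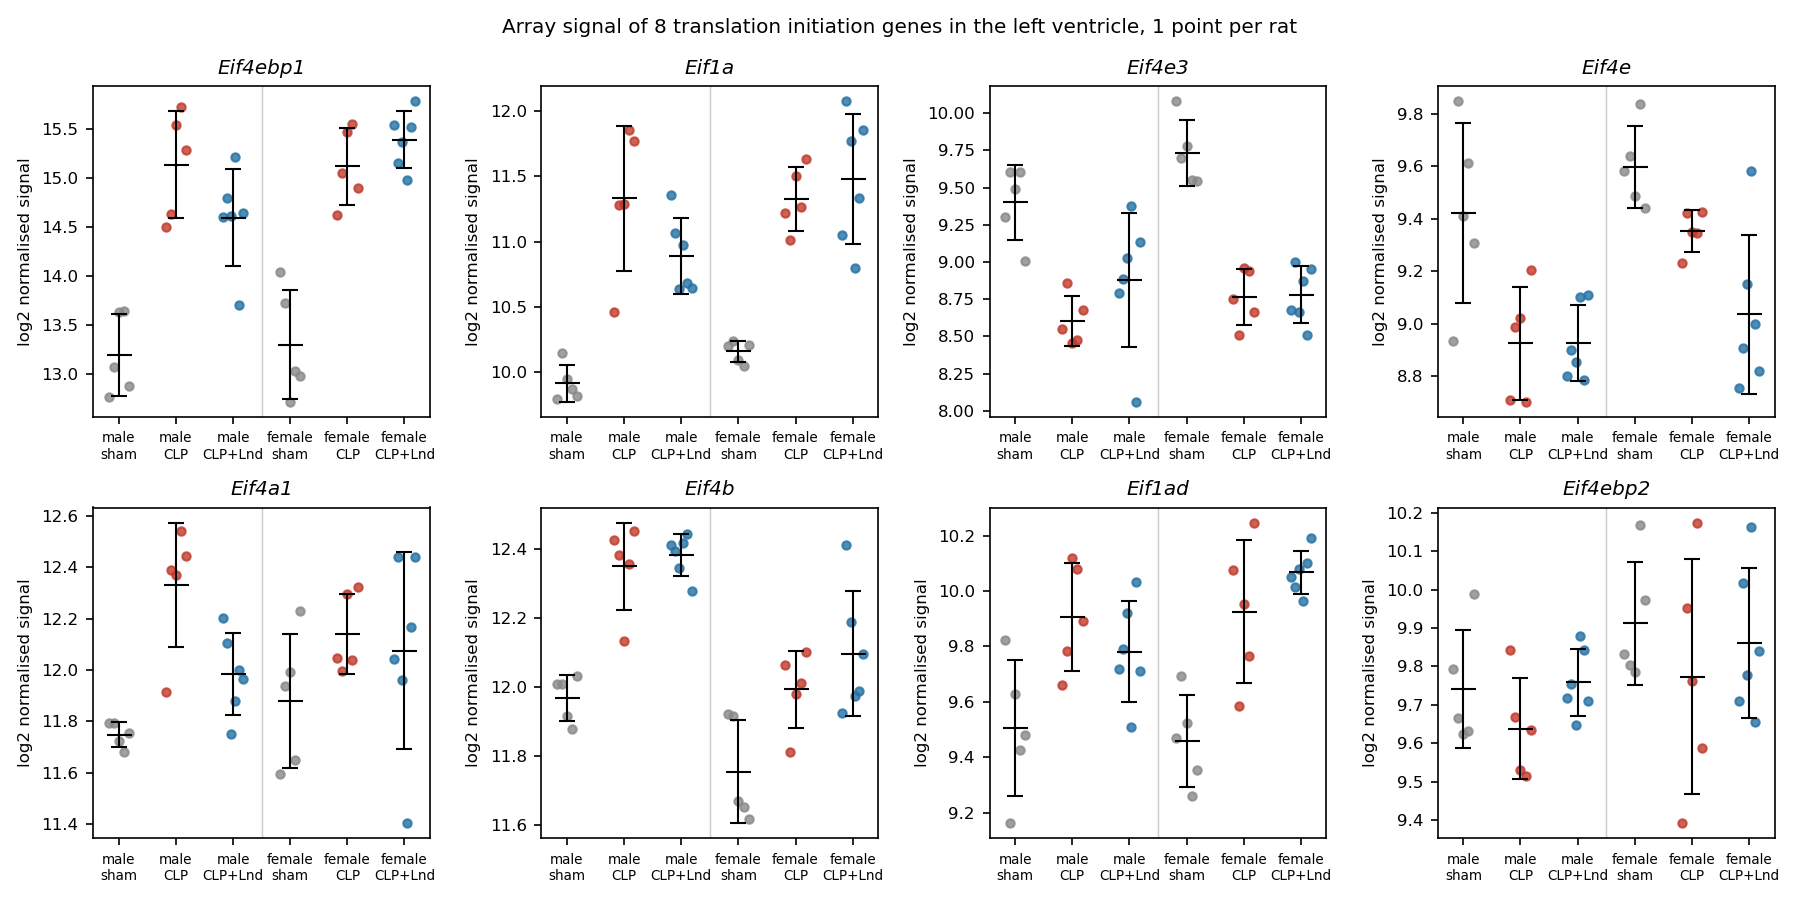
Log2 normalised array signal (y axis) of 8 initiation genes in the 6 groups (x axis), with 1 point per rat and bars for the mean ± SD; Lnd stands for landiolol. Eif4ebp1 and Eif1a lay higher in all CLP and CLP plus landiolol rats than in all sham rats of the same sex, and Eif4e3 lay lower in every female rat with CLP than in every female sham rat.

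Eif4ebp1 encodes 4E-BP1, which in its unphosphorylated form holds eIF4E away from eIF4G, and it had the largest rise of all members against sham in both sexes. In male sham rats its log2 signal was 12.77, 13.07, 13.64, 13.64 and 12.89. In male CLP rats it was 14.50, 14.63, 15.54, 15.72 and 15.29, and in male CLP plus landiolol rats it ran from 13.71 over a median of 14.62 to 15.22. Every male rat with CLP, treated or not, was above every sham rat, and the treated and untreated CLP rats overlapped. The log2 fold change was 1.94 for CLP vs sham (SE 0.29, 3.83-fold, adjusted p = 0.000369 by limma) and 1.39 for CLP plus landiolol vs sham (SE 0.28, 2.63-fold, adjusted p = 0.00492). The latter passed in only 4 of 11 fits that each left out 1 array, with an adjusted p of up to 0.0158, and the effect there ran from 1.27 to 1.57.

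In females, Eif4ebp1 was 14.04, 13.72, 12.72, 13.03 and 12.98 in sham rats. It was 14.62, 15.06, 15.47, 15.54 and 14.90 in CLP rats and ran from 14.98 over 15.44 to 15.78 in CLP plus landiolol rats. Again no septic rat reached down to the highest sham rat. The log2 fold change was 1.82 for CLP vs sham (SE 0.25, 3.52-fold, adjusted p = 0.000431) and 2.09 for CLP plus landiolol vs sham (SE 0.24, 4.26-fold, adjusted p = 9.01e-05). Both passed in all fits that left out 1 array. Within single slides the difference between CLP and sham was 2.05 and 1.62.

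The other 4E-binding proteins, which bind the same site on eIF4E, did not pass. Eif4ebp2 was 9.64 ± 0.13 (SD, n = 5) in male CLP rats and 9.74 ± 0.15 (n = 5) in male sham rats, an effect of -0.10 with a 95% interval from -0.32 to 0.11. In females the effect was -0.14 (from -0.47 to 0.19). Eif4ebp3 differed by 0.30 in males (from 0.06 to 0.54, adjusted p = 0.0891) and by 0.33 in females (from -0.01 to 0.67, adjusted p = 0.231). Thus 1 of the 3 genes of this family passed in each sex, and the intervals of the other two lay below that of Eif4ebp1.

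The eIF4E family held the only member that fell against sham. Eif4e3, a cap-binding paralogue of eIF4E, was 10.08, 9.70, 9.78, 9.55 and 9.54 in female sham rats. In female CLP rats it was 8.75, 8.51, 8.96, 8.94 and 8.66, and in female CLP plus landiolol rats it ran from 8.51 over 8.77 to 9.0. All septic females lay below all sham females. Eif4e3 fell by 0.97 after CLP (SE 0.14, 1.95-fold lower, adjusted p = 0.000658) and by 0.95 in CLP plus landiolol vs sham (SE 0.14, 1.93-fold lower, adjusted p = 0.000431).

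In males, Eif4e3 was 9.30, 9.60, 9.49, 9.61 and 9.01 in sham rats and 8.55, 8.86, 8.46, 8.47 and 8.68 in CLP rats, with no overlap. In CLP plus landiolol rats it ran from 8.06 over 8.96 to 9.38 and overlapped both other groups. The male effect of CLP was -0.80 (SE 0.20, adjusted p = 0.0129), which missed the 1% threshold, and that of CLP plus landiolol vs sham was -0.52 (adjusted p = 0.103). A pass in 1 sex alone does not show that the sexes differ. Eif4e itself, the main cap-binding protein, was 8.93, 9.85, 9.41, 9.61 and 9.31 in male sham rats and 8.71, 8.99, 9.02, 8.70 and 9.20 in male CLP rats, so that the groups overlapped. Its effects against sham were -0.50 in males for both CLP (adjusted p = 0.0413) and CLP plus landiolol (adjusted p = 0.0476), and in females -0.24 (adjusted p = 0.36) and -0.56 (adjusted p = 0.0168). None passed 1%. Eif4e2, a cap-binding paralogue linked to repression of translation, differed by 0.02 in males (95% interval from -0.20 to 0.25) and by 0.06 in females (from -0.15 to 0.27) after CLP.

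Of the genes for start codon recognition and subunit joining, Eif1a rose in both sexes. It encodes a form of eIF1A, which with eIF1 holds the small subunit ready to scan for the start codon. In male sham rats its log2 signal was 9.79, 10.15, 9.95, 9.87 and 9.82. In male CLP rats it was 10.46, 11.28, 11.29, 11.85 and 11.77, and in male CLP plus landiolol rats it ran from 10.64 over 10.83 to 11.35. The septic groups lay above the sham group and overlapped each other, with the lowest CLP value in replicate 1. The log2 fold change was 1.41 for CLP vs sham (SE 0.22, 2.67-fold, adjusted p = 0.000527) and 0.98 for CLP plus landiolol vs sham (SE 0.21, 1.97-fold, adjusted p = 0.00828). The former passed in all 10 fits that left out 1 array and the latter in 0 of 11, with effects from 0.88 to 1.03 and an adjusted p of up to 0.0227.

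Female sham rats had Eif1a signals of 10.20, 10.24, 10.09, 10.05 and 10.21. Female CLP rats had 11.22, 11.01, 11.50, 11.26 and 11.63, and female CLP plus landiolol rats ran from 10.80 over 11.55 to 12.07. The sham values spanned less than the septic ones and lay below all of them. The effects were 1.16 (SE 0.21, 2.24-fold, adjusted p = 0.00295) and 1.32 (SE 0.20, 2.5-fold, adjusted p = 0.000685). The other Eif1a probe gave 1.32 and 1.01 in males (adjusted p = 0.000276 and 0.00245) and 1.06 and 1.1 in females (adjusted p = 0.0151 and 0.0076) for CLP and for CLP plus landiolol against sham. The X-linked paralogue Eif1ax differed by 0.05 in males (95% interval from -0.18 to 0.28) and by -0.04 in females (from -0.30 to 0.21) after CLP.

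Eif1ad, which encodes a protein with an eIF1A-like domain, passed only for CLP plus landiolol vs sham in females. Its log2 signal was 9.47, 9.69, 9.52, 9.26 and 9.35 in female sham rats and 10.07, 9.59, 9.95, 9.77 and 10.25 in female CLP rats. In female CLP plus landiolol rats it ran from 9.97 over 10.06 to 10.19, above all sham rats, whereas 1 CLP rat lay within the sham range. The effect of CLP plus landiolol vs sham was 0.61 (SE 0.13, 1.52-fold, adjusted p = 0.00543) and that of CLP 0.47 (adjusted p = 0.0382). The first passed in 2 of 11 fits that left out 1 array. The other Eif1ad probe gave 0.27 (adjusted p = 0.13) for CLP plus landiolol vs sham and -0.02 for CLP vs sham. Of the 7 genes of this role, 7 in males and 5 in females were above 0 after CLP, with medians of 0.27 and 0.25.

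The helicase and scaffold group supplied the remaining passes, both in males. Eif4a1 encodes eIF4A1, the helicase that unwinds the leader of the messenger. Its log2 signal was 11.79, 11.79, 11.72, 11.68 and 11.75 in male sham rats and 11.91, 12.39, 12.37, 12.54 and 12.45 in male CLP rats. In male CLP plus landiolol rats it ran from 11.75 over 11.98 to 12.20. CLP did not overlap sham, but replicate 1 of the CLP group stood closer to the sham rats than to the other CLP rats. The effect of CLP was 0.58 (SE 0.12, 1.5-fold, adjusted p = 0.00394), and it passed in 3 of 10 fits that left out 1 array. The other Eif4a1 probe gave 0.75 (adjusted p = 0.0121). In females the effect of CLP was 0.26 (95% interval from -0.14 to 0.66).

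Eif4b encodes eIF4B, a cofactor that stimulates eIF4A. In male sham rats its signal was 12.01, 12.01, 11.92, 11.88 and 12.03. It was 12.43, 12.38, 12.13, 12.36 and 12.45 in male CLP rats and ran from 12.28 over 12.40 to 12.44 in male CLP plus landiolol rats. Both septic groups lay above the sham group by a small step, and they overlapped each other. The effects were 0.38 (SE 0.09, 1.30-fold, adjusted p = 0.00731) and 0.41 (SE 0.08, 1.33-fold, adjusted p = 0.00518), and they passed in 1 of 10 and 3 of 11 fits that left out 1 array. The other Eif4b probe gave 0.23 (adjusted p = 0.452) and 0.24 (adjusted p = 0.434). In females the effects were 0.24 (adjusted p = 0.262) and 0.34 (adjusted p = 0.0678).

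Eif4g3, a scaffold of the eIF4G family, had the largest negative estimates among females but with wide scatter. Its female sham signals were 12.39, 14.59, 16.06, 11.98 and 12.37, and its CLP signals were 12.34, 14.24, 11.65, 11.38 and 12.59. In female CLP plus landiolol rats it ran from 11.18 over 11.76 to 12.88. Single rats of the sham and CLP groups thus stood far above the others. The effects were -1.04 for CLP (95% interval from -2.53 to 0.44) and -1.60 for CLP plus landiolol vs sham (from -3.02 to -0.18, adjusted p = 0.135). The other Eif4g3 probe gave 0.19 and 0.34. Eif4g1, the main scaffold, differed by 0.20 in males and 0.31 in females after CLP and did not pass.

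The 8 genes of eIF2, which carries the initiator tRNA, and of its exchange factor eIF2B did not pass against sham in either sex. After CLP 7 of them were above 0 in males and 6 in females, with medians of 0.22 and 0.16. Eif2b3, the gamma subunit of eIF2B, was highest at 0.65 in males (95% interval from 0.03 to 1.26, adjusted p = 0.149) and 0.58 in females (from 0.15 to 1.0, adjusted p = 0.0848). Eif2s1, the eIF2 alpha subunit that the stress kinases phosphorylate, differed by 0.35 in males (adjusted p = 0.0149) and by 0.26 in females (adjusted p = 0.262). Eif2d, which can deliver initiator tRNA without eIF2, was at -0.22 in males (adjusted p = 0.13) and -0.28 in females (adjusted p = 0.0945). The other Eif2d probe gave 0.25 in males and -0.52 in females.

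eIF3, the large complex that links the small subunit to the eIF4 factors, showed small and even values. Of its 13 genes, 12 were above 0 after CLP in males and 12 in females, and 0 passed in either sex. The effects ran from -0.01 to 0.39 in males and from -0.10 to 0.36 in females, with medians of 0.21 and 0.11. Eif6, which keeps free large subunits from joining small ones, differed by 0.44 in males (adjusted p = 0.015) and by 0.36 in females (adjusted p = 0.0615). Eif5a, an elongation and termination factor despite its name, differed by 0.35 in males (95% interval from -0.34 to 1.04) and by 0.02 in females (from -0.64 to 0.68).

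**Figure D2:**
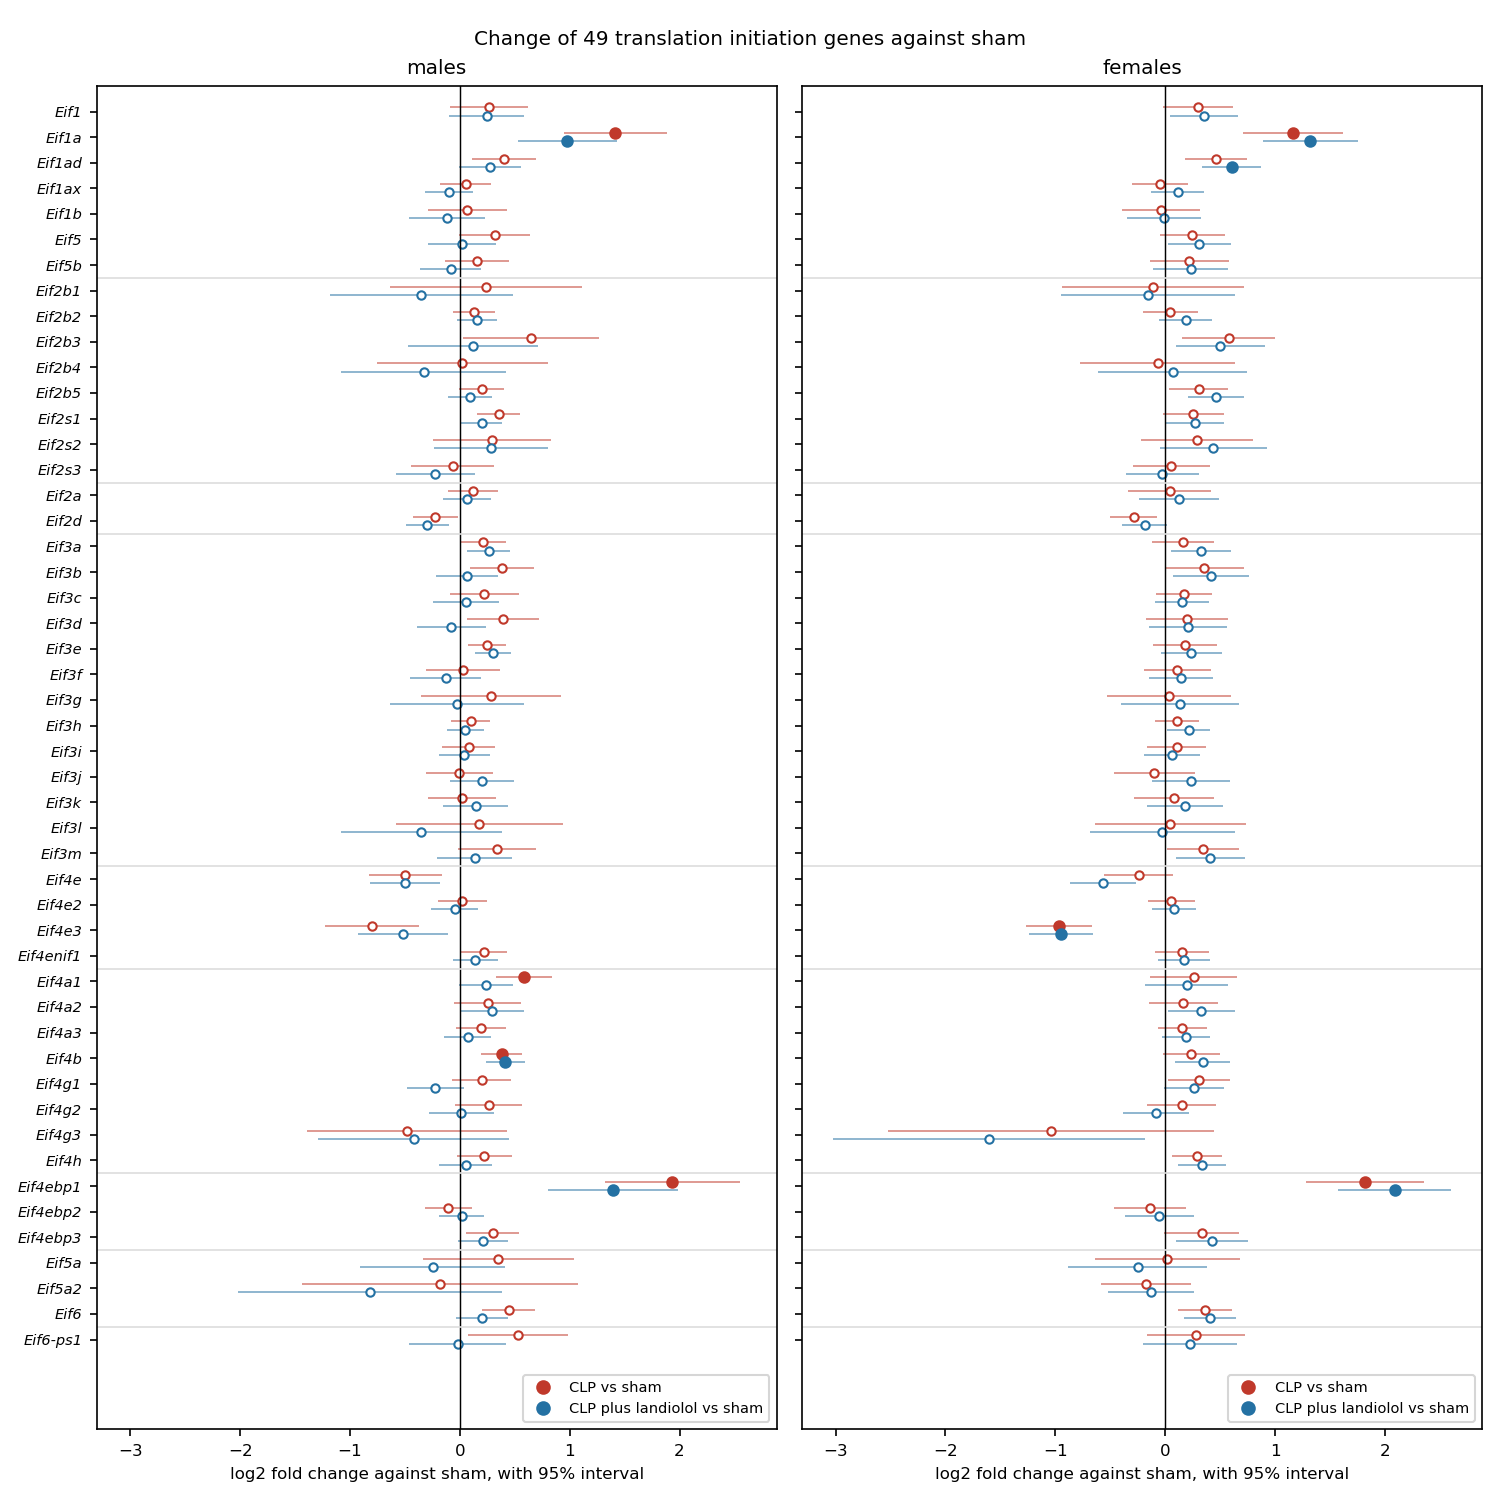
Log2 fold change against sham (x axis) of the 49 measured genes grouped by role (y axis, thin lines between roles) in males and females, for CLP (red) and CLP plus landiolol (blue). Filled points passed the FDR of 1% and bars are 95% intervals; most points lie slightly right of 0, while Eif4ebp1 and Eif1a lie far to the right and Eif4e3 to the left.

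Across all members, the effects of CLP were small and mostly above 0. In males 41 of 49 were above 0 (83.7%, against 49.7% of all genes), with a median of 0.22 where that of all genes was -0.00. In females 38 of 49 were above 0 (77.6%, against 48.2% of all genes), with medians of 0.16 and -0.02. An unadjusted p under 0.05 was found for 36.7% of the members in males, where 29.1% of all genes had one, and for 22.4% in females, where 23.4% had one. For CLP plus landiolol vs sham, 30 members were above 0 in males (61.2%, against 49.6% of all genes, median 0.05) and 37 in females (75.5%, against 49.3%, median 0.20). The male value for this comparison depended on the processing: with the table of the authors 25 members were above 0 with a median of 0.00, and with the number of detected spots as a term 37 were, with a median of 0.11.

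The comparison of CLP plus landiolol with CLP asks what the β1-blocker changed in septic hearts, and it uses the same CLP arrays as above. Here 0 members passed in either sex by limma, and 0 by SAM, the test named in the methods. Of all genes, 0.902% were higher and 0.714% lower in males, and 0.0565% and 0.0308% in females. In males 6 members had an unadjusted p under 0.05 (12.2%, against 15.1% of all genes) and in females 1 (2.04%, against 9.44%). The male effects lay mostly below 0: 38 of 49 were negative, with a median of -0.15 where that of all genes was 0.00, and 22.4% were above 0 against 50.5% of all genes. In females 36 of 49 were above 0 (73.5%, against 54.0% of all genes), with a median of 0.05 where that of all genes was 0.02. Over other settings this female count ran from 31 (75th-percentile scaling) to 39 (median array signal in the model).

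The brightness of the male arrays was not balanced between these groups. The median processed signal, in scanner units before normalisation, was 81.6, 119, 74.99, 118, 49.2 and 113 on the male CLP plus landiolol arrays and 80.1, 118, 117, 101 and 106 on the male CLP arrays. Thus replicates 1, 3 and 5 of the landiolol group and replicate 1 of the CLP group were dimmer than the rest, and in the sham group replicates 1 and 5 were too, at 77.1 and 74.8 against 123 to 158. Eif2b1 was 6.88, 6.43 and 6.59 on the 3 dim landiolol arrays and between 7.54 and 8.22 on the other 3. Eif3l, an eIF3 subunit, was 9.86, 9.69 and 9.41 there and between 10.54 and 10.89 on the other 3. Other members went the opposite way. Eif2s2 was 13.99, 13.91 and 14.40 on the 3 dim landiolol arrays and between 13.18 and 13.55 on the other 3. Eif3k was 15.09, 15.02 and 15.23 there and between 14.57 and 14.79 on the other 3. These genes are examples. With the log2 of the median array signal as a term in the model, a choice made after the data were seen, 37 of 49 male members were below 0 and their median was -0.10, where that of all genes was -0.00.

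For Eif4ebp1 the landiolol effect was -0.54 in males (95% interval from -1.13 to 0.05, adjusted p = 0.385) and 0.27 in females (from -0.24 to 0.79). For Eif1a it was -0.44 (from -0.89 to 0.01, adjusted p = 0.354) and 0.16 (from -0.28 to 0.59). Neither gene was thus shown to respond to landiolol, and the male intervals still include falls of about the size of the estimate and larger. For Eif4a1 the male effect was -0.35 (from -0.59 to -0.10, adjusted p = 0.165) and for Eif4g1 it was -0.42 (from -0.68 to -0.16, adjusted p = 0.107). Eif4b differed by 0.03 (from -0.14 to 0.21), and Eif4e3 by 0.28 (from -0.13 to 0.69) in males and by 0.01 (from -0.28 to 0.31) in females.

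The lowest male estimates after landiolol belonged to genes with wide scatter. Eif5a2, a paralogue of Eif5a, was at -0.63, but in the landiolol group it was well above background on only 4 of 6 arrays and ran from 2.03 over 5.77 to 6.07. Eif5a was at -0.60 (95% interval from -1.26 to 0.06) and Eif2b1, the eIF2B alpha subunit, at -0.58 (from -1.42 to 0.25). The highest male estimates were Eif4e3 at 0.28, Eif3j, a loosely bound eIF3 subunit, at 0.20 and Eif3k at 0.12. Other probes ran down to -0.03 for Eif3j and to -0.29 for Eif3k. In females the highest were Eif3j at 0.33 (from -0.02 to 0.69), Eif4ebp1 at 0.27 and the helicase paralogue Eif4a2 at 0.16. The lowest were Eif4g3 at -0.56 (0.15 by its other probe), Eif4e at -0.32 (from -0.62 to -0.02, adjusted p = 0.499) and Eif5a at -0.27. Of the 20 genes with several probes, 6 had probes that differed in sign in this comparison, in each sex.

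The male result depended on 1 array. Without replicate 1 of the male CLP group, 4 members passed at 5% as lower with landiolol: Eif3d, an eIF3 subunit that can bind the cap of some messengers, at -0.60 (adjusted p = 0.0189), Eif4a1 at -0.45 (adjusted p = 0.0204), Eif4g1 at -0.50 (adjusted p = 0.0355) and Eif1a at -0.66 (adjusted p = 0.0401). In that fit 1.91% of all genes passed as lower. By sign alone, passed or not, 39 members were below 0, and their median was -0.21. The share of all genes below 0 was not counted for that fit. Replicate 1 had the lowest signal of its group for Eif1a, Eif4a1, Eif2b1 and Eif4ebp1. It was also the dimmest array of its group, as given above. Without it, brighter CLP arrays were set against a landiolol group that kept its dim arrays. Within the landiolol group, Eif3d was 11.78, 11.58 and 11.68 on the dim arrays and between 11.99 and 12.06 on the others. Eif4g1 was 12.98, 12.99 and 13.06 there and between 13.29 and 13.41 on the others. Eif4a1 and Eif1a overlapped between dim and other arrays. The part of brightness in these 4 passes was not tested. Replicate 1 was kept, since the labels do not mark it as different.

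**Figure D3:**
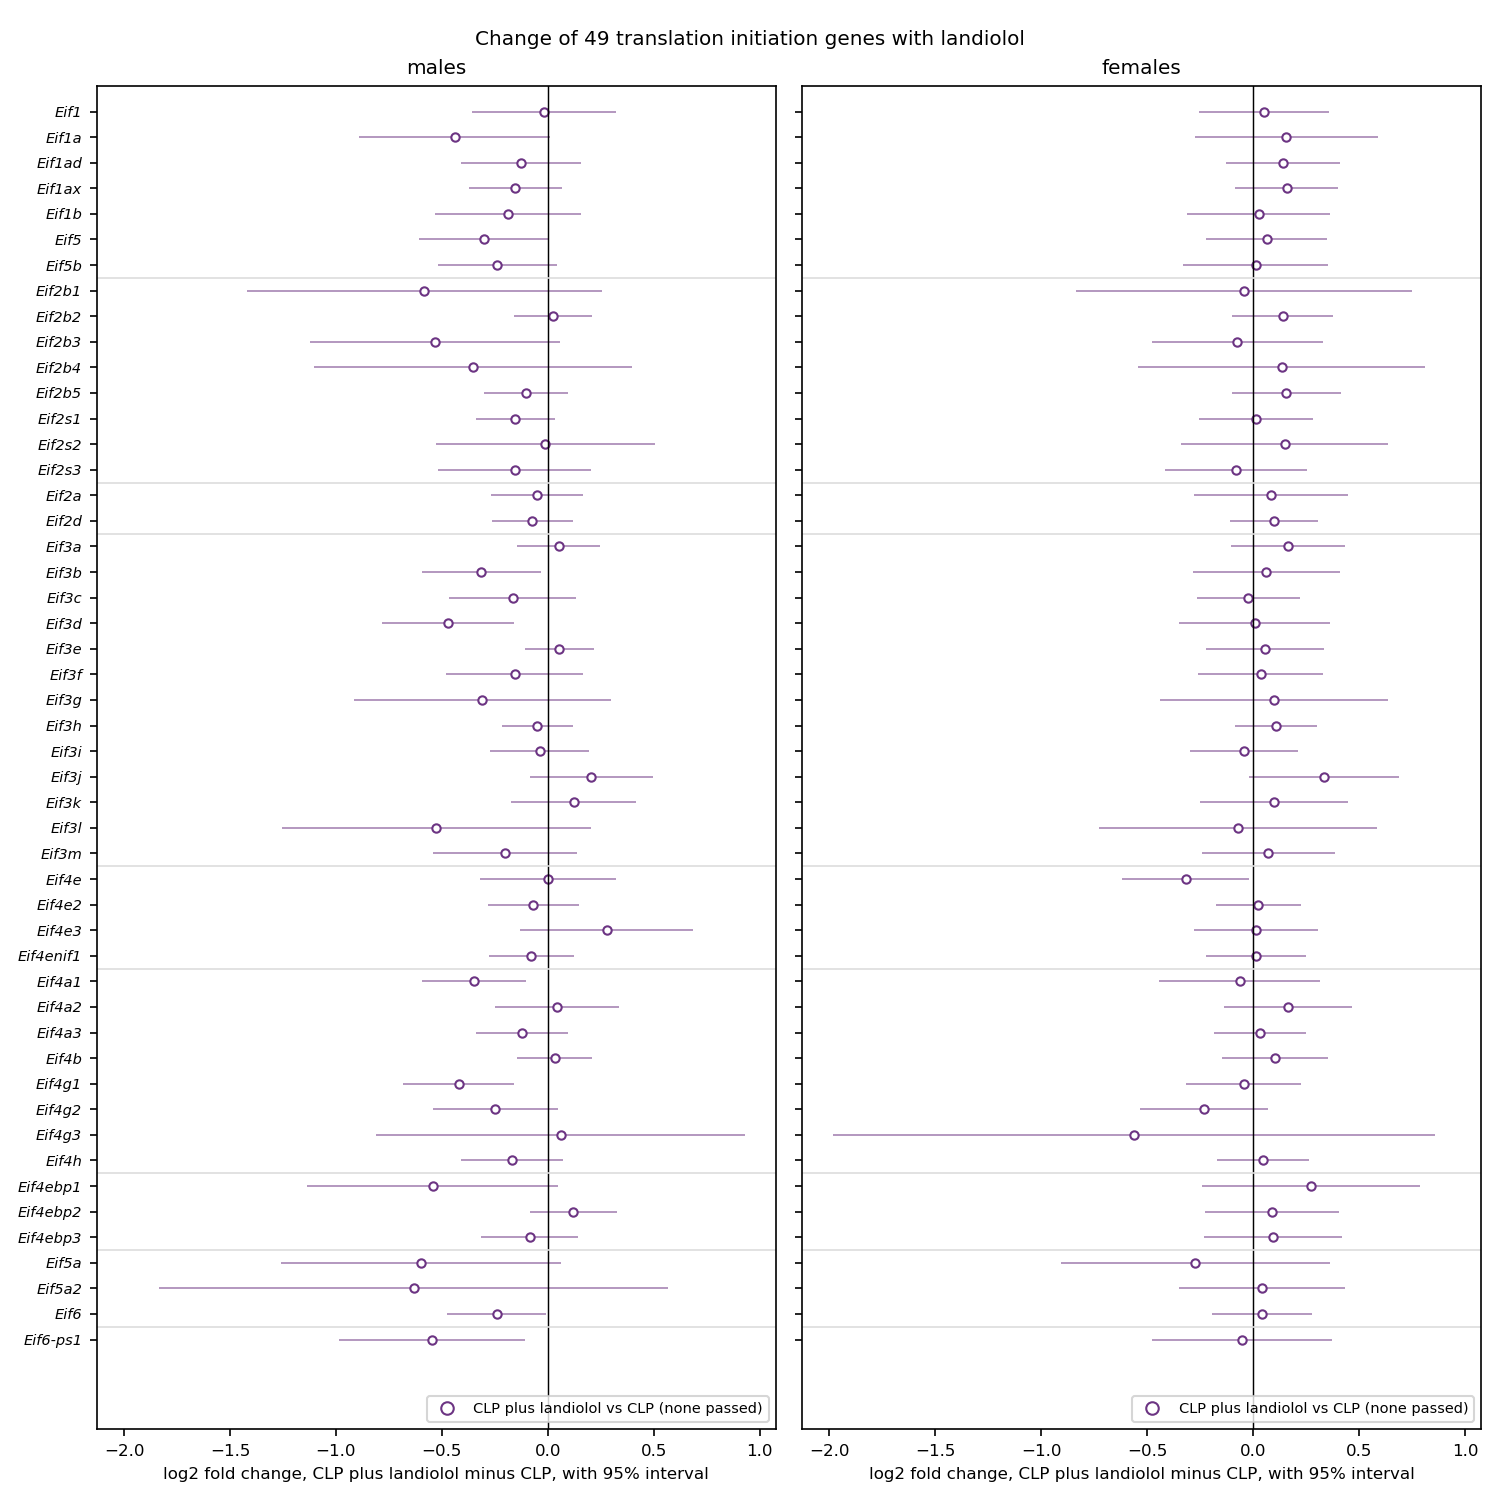
Log2 fold change of CLP plus landiolol against CLP (x axis) for the 49 measured genes grouped by role (y axis), in males and females, with 95% intervals. No gene passed the FDR of 5%, and male points lie mostly left of 0 while female points lie close to 0.

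A difference between the sexes was tested as an interaction over all 32 arrays, normalised together. At an FDR of 5%, 0 members passed for any of the 3 comparisons, and among all 18993 genes tested 0% passed in the effect of CLP, 0% in that of landiolol against CLP and 0% in that of CLP plus landiolol against sham. An unadjusted p under 0.05 was found for 0, 4 and 2 of the 49 members. The share of all genes with one was not counted for the interaction, so these numbers cannot be set against it. For Eif4ebp1 the male minus female difference in the landiolol effect was -0.82 (95% interval from -1.59 to -0.05, adjusted p = 0.972), and for Eif1a it was -0.59 (from -1.20 to 0.02). For Eif4g1 the difference was -0.48 in CLP plus landiolol vs sham (from -0.82 to -0.14, adjusted p = 0.605).

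Genes that regulate initiation but are no members were counted from lists of the pathway. Of 13 genes of the eIF2 kinases and the integrated stress response, 1 rose and 1 fell after CLP in males and 1 rose in females. Asns, asparagine synthetase and a known target of ATF4, went from 6.69 ± 0.34 (SD, n = 5) to 8.07 ± 0.46 (n = 5) in males, an effect of 1.37 (adjusted p = 0.0009 by limma). In females it went from 6.90 ± 0.13 (n = 5) to 7.73 ± 0.24 (n = 5), an effect of 0.83 (adjusted p = 0.0032). Ddit3, which encodes the stress factor CHOP and is also a target of ATF4, fell by 1.31 in males (adjusted p = 0.0022), so these targets moved in opposite directions. In females Ddit3 was at -0.68 (adjusted p = 0.317). Atf4 itself was at 0.30 in both sexes and did not pass.

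Of 15 genes of mTORC1 and its regulators, 1 rose after CLP in males and 0 passed in females. The gene was Ddit4, which encodes the mTORC1 inhibitor REDD1, at 1.65 in males (adjusted p = 0.0014) and 0.63 in females (adjusted p = 0.467). In CLP plus landiolol vs sham, Akt2, a kinase upstream of mTORC1, fell by 0.53 in males (adjusted p = 0.002). Of 11 measured genes for cap and poly(A) regulation, Pabpc1, the main poly(A)-binding protein, rose by 0.69 in males after CLP (adjusted p = 0.0056) and was at 0.42 in females (adjusted p = 0.278). None of the 8 elongation factor genes passed in any comparison, and with landiolol vs CLP no gene of these lists passed in either sex.

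The promoters of the members were read for an E-box, CACGTG, the letters bound by MYC, which are their own reverse complement, and for TGATGNAAT, the C/EBP-ATF element bound by ATF4, on both strands. RefSeq promoters (GRCr8) from 250 bases before to 50 bases after the start were matched for 44 of the 50 genes. The E-box occurred in 9 of them (20.5%), against 6.42% of all 33469 promoters, and TGATGNAAT in 0, against 1.09%. The member shares count genes, a few of them with more than 1 promoter, whereas the other shares count single promoters. The 9 genes were Eif1b, Eif3a, Eif3b, Eif3f, Eif4e, Eif4g1, Eif4h, Eif5a and Eif5a2. The 250 bases before the start of 3 of them are printed with the E-box in capitals, to show the cap-binding protein, its scaffold and Eif5a.
Eif4e, chr2:229740503-229740752, plus strand: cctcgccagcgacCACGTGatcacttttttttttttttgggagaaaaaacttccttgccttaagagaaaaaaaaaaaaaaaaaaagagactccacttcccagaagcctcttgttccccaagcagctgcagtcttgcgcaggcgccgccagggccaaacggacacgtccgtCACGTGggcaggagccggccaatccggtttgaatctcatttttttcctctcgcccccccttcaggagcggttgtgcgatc
Eif4g1, chr11:93746368-93746617, minus strand: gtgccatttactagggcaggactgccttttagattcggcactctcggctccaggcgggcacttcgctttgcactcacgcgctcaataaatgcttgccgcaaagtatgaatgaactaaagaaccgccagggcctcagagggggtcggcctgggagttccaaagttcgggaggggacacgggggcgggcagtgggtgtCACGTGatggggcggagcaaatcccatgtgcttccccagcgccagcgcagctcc
Eif5a, chr10:55143222-55143471, minus strand: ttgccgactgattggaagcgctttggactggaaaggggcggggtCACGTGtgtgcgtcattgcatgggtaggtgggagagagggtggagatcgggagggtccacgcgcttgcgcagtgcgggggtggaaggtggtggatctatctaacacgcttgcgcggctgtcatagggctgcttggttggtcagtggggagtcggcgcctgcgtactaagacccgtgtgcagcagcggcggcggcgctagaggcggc
The median effect of CLP was 0.20 in the genes with an E-box and 0.22 in the 34 matched and measured genes without one in males, and 0.11 and 0.16 in females. No gene that passed held the E-box within these promoters, and the promoters of Eif4ebp1, Eif4e3 and Eif4b were not among those matched.

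The level of some members went with the number of spots that an array detected, within groups as well. The number of spots well above background ran from 34920 to 43155 over the male arrays and from 36151 to 38705 over the female ones, and the male sham group alone spanned 37254 to 43155. Over the 16 arrays of a sex, after subtracting group means, Pearson's r between this number and a member's level ran from -0.80 (Eif2s2) to 0.77 (Eif3c) in males and from -0.69 (Eif2s2) to 0.80 (Eif3l) in females. It was above 0.5 for 20 of 49 members in males (40.8%, against 21.5% of all genes) and 12 in females (24.5%, against 16.1%). It was below -0.5 for 6 members in males (12.2%, against 20.6%) and 4 in females (8.16%, against 13.3%). These correlations are a description, since detection and level come from the same scan. For Eif4ebp1 r was 0.67 in males and 0.45 in females, and for Eif1a it was 0.14 and -0.22. With the number of spots as a term in the model, a choice made after the data were seen, Eif4ebp1 and Eif1a still passed for CLP vs sham in both sexes and Eif4e3 in females, while Eif4b no longer passed (adjusted p = 0.0147). The male median of the members after CLP was 0.28 in that fit. With the median array signal as the term it was 0.23, and 9 male members passed for CLP vs sham: Eif4ebp1, Eif1a, Eif4a1, Eif4b, Eif2s1, Eif3m, Eif6 and Eif6-ps1 as higher and Eif4e3 as lower. The share of all genes that passed in that fit was not counted.

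**Figure D4:**
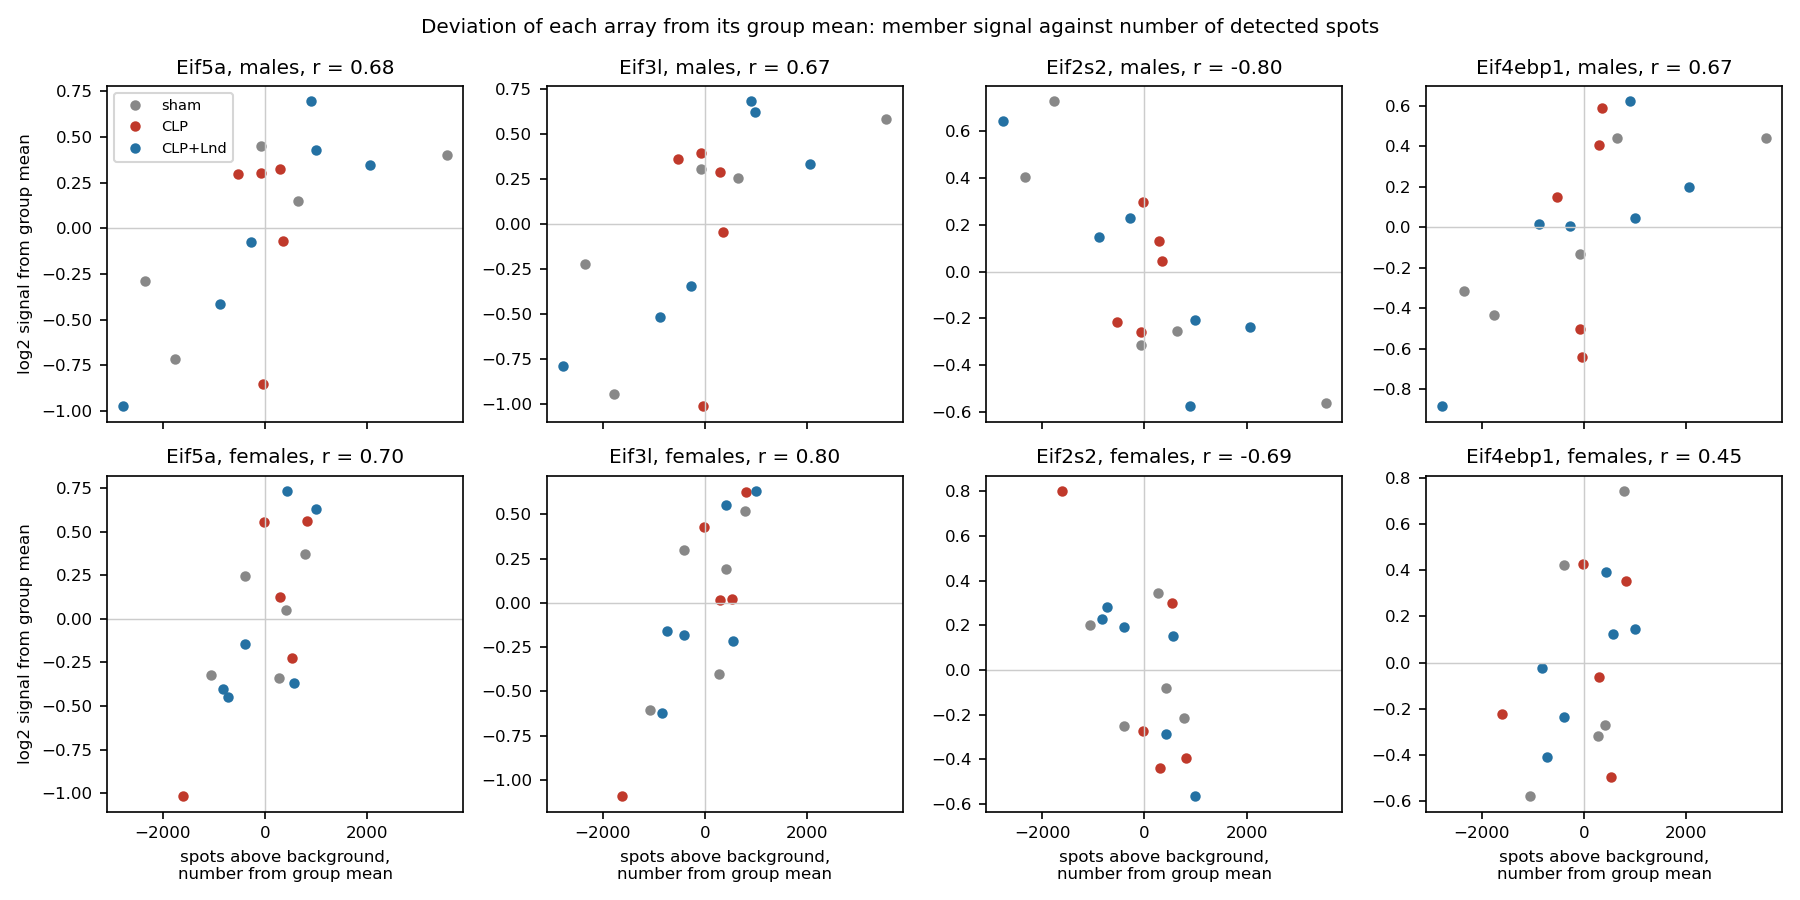
Deviation of each array from its group mean: log2 signal of Eif5a, Eif3l, Eif2s2 and Eif4ebp1 (y axis) against the number of spots above background (x axis), 16 arrays per sex, with Pearson's r over the 16 arrays. Eif5a, Eif3l and Eif4ebp1 were higher, and Eif2s2 lower, on arrays with more detected spots.

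Position on the slide was not balanced in females. All 5 sham arrays lay in row 1 and all 6 CLP plus landiolol arrays in row 2, so for this comparison row and treatment cannot be told apart within a row. With the row as a term, estimated through the 3 CLP arrays in row 1 and the 2 in row 2, 0 members passed, while the effects were 1.92 for Eif4ebp1 (adjusted p = 0.0958), 1.12 for Eif1a (adjusted p = 0.297), -1.01 for Eif4e3 (adjusted p = 0.136) and 0.47 for Eif1ad (adjusted p = 0.552). For CLP vs sham within row 1, 3 CLP against 5 sham arrays differed by 1.75 for Eif4ebp1, 1.08 for Eif1a and -0.99 for Eif4e3. With the row as a term Eif1a no longer passed in this comparison (adjusted p = 0.0228), while Eif4ebp1 and Eif4e3 did. Within single slides, every gene that passed kept its direction.

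In bulk tissue, fewer cells of a type and less RNA per cell cannot be told apart. The 8 cardiomyocyte markers were all measured, 0 passed in any comparison, and their summed signal was between 20.77 and 21.18 on every array. Of 5 neutrophil markers S100a8 and S100a9 were measured and Csf3r, Cxcr2 and Mmp8 did not pass the filter, and the summed signal ran from 3.72 to 5.52 in sham rats and from 6.67 to 9.58 in CLP rats of both sexes, with 7.27 to 10.05 in CLP plus landiolol rats. The 6 macrophage and monocyte markers summed to between 11.85 and 12.60 in sham rats and between 12.70 and 13.41 in CLP rats, with 12.38 to 13.43 in CLP plus landiolol rats. After CLP, 3 of these 6 passed as higher in males and 2 in females. The filter asked for detection in some group only, so neutrophil markers dim in sham rats could pass it through the septic groups. A rise among those kept was thereby favoured in advance. With that limit for neutrophils, neutrophil and macrophage markers moved with CLP in the direction of Eif4ebp1 and Eif1a. Their part in these rises was not tested.

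Among the markers of lymphocytes, fibroblasts and endothelial cells, none passed as higher after CLP. Of the lymphocyte markers, Cd3d and Nkg7 were measured. Their summed signal ran from 9.47 to 10.03 in male sham rats and from 8.92 to 9.39 in male CLP rats, without overlap, but from 9.07 to 10.03 and from 8.69 to 9.43 in females. Neither gene passed, and the median effect of CLP was -0.48 in males and -0.32 in females. Of 4 fibroblast markers, the collagen genes Col1a1 and Col3a1 fell after CLP in males, by 2.11 (adjusted p = 0.00154) and 2.05 (adjusted p = 0.00129), while 0 passed in females. The median effect over the 4 was -1.22 in males and -0.70 in females. Their summed signal overlapped, from 15.60 over a median of 15.90 to 16.37 in male sham and from 15.17 over 15.94 to 16.17 in male CLP rats. In females it ran from 15.14 over 15.25 to 15.71 in sham and from 15.10 over 15.90 to 16.17 in CLP rats. Of 4 endothelial markers, only Kdr, a receptor for the growth factor VEGF, passed, at 0.87 in CLP plus landiolol vs sham in females. The median summed endothelial signal was 14.88 in male sham, 15.25 in male CLP and 15.45 in male CLP plus landiolol rats. In females it was 14.72, 15.15 and 15.39. The ranges overlapped, but after CLP these medians moved in the direction of Eif4ebp1 and Eif1a. Such a sum is weighted towards its brightest marker. The median effect of CLP over the 4 endothelial markers was 0.06 in males and 0.12 in females. The part of these cell types in the effects on initiation genes, the fall of Eif4e3 included, was not tested.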

How the data were processed

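RNA of 32 left ventricles, in 6 groups given by the labels, was hybridised to 1-colour Agilent arrays, with 8 arrays per slide. The authors deposited the scanner output of Agilent Feature Extraction 10.5 (version per the submitters' processing notes), with spot intensities before and after background subtraction and quality flags, which were used for filtering. By the file headers, the arrays of a female slide were extracted with protocol GE1_107_Sep09 and all others with GE1_105_Dec08. In females this protocol thus coincided with the slide, and each female slide held rats of every female group. A second file deposited by the authors holds log2 values, quantile-normalised per sex and filtered. Whether an offset was added before its log2 is unknown. Of per-sample columns, 0 were left unused for want of a sample.

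Control spots and spots flagged as outliers were left out, which left 213 missing values. The log2 of the processed intensity was taken, spots of 1 probe were averaged, and quantile normalisation was done over the 16 arrays of each sex. The filter asked for a signal well above background in 80% or more of the arrays of any group of the sex and passed 25864 male and 25394 female probes. Groups were compared with limma 3.58.1 in R 4.3.3 (lmFit and eBayes over the 3 groups of a sex, adjusted p by Benjamini-Hochberg over all kept probes), and sexes as an interaction on probes kept in both. The test was tried on simulated data with independent noise for each probe and array. That simulation left out shifts shared by the probes of an array, such as those that go with brightness. Intervals are 95%. Figures were drawn with matplotlib 3.10.9 in Python 3.11.15. The number of arrays limits the precision.

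The members, gene lists and tests were chosen with earlier results of these data known. Genes named with values were those that passed in any comparison, the 3 highest and 3 lowest in each comparison, all 4E-binding protein and eIF4E genes, and pathway genes that passed. Eif2s1, Eif6, Eif1ax, Eif4g1, Eif3d and other genes outside this rule were named after their values were seen. Other settings tried were 75th-percentile scaling, normexp with an offset of 50, other filters, only the groups compared, slide or row as a term, both sexes normalised together, the log2 values of the authors, SAM with 100 permutations, exchanged FDR levels, any probe of a gene, and leaving out each array. The number of detected spots or the median array signal as a term was added after seeing the data.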

Additional observations from a re-analysis of the deposited data

Results flagged for a closer look

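The level of 3 genes had 1 rat standing apart from the rest of its group. Replicate 1 of the male CLP group was lowest for Eif2b1, with a log2 signal of 6.92 against 7.97 to 8.19 in the other 4 rats. The same rat was lowest for Eif4a1, at 11.91 against 12.37 to 12.54. Replicate 1 of the male sham group was lowest for Eif2b3, at 7.49 against 8.44 to 8.67. Of 114 groups examined these 3 stood apart, where chance gives about 1 in 20, or 5.7.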

How the results depend on the processing

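For CLP vs sham in males, where 4 genes passed, 7 passed with normexp correction, 9 at an FDR of 5%, 9 with the median array signal in the model (added after the data were seen), and 2 to 4 with 1 array left out. For CLP plus landiolol vs sham in males, where 3 passed, 1 passed without a filter on dim probes, 1 with the number of detected spots in the model (also added then), 5 at an FDR of 5%, and 0 to 2 with 1 array left out. For landiolol against CLP in males, leaving out 1 array gave 0 to 4, the latter without replicate 1 of the CLP group. In females, leaving out 1 array gave 3 to 3 for CLP vs sham, 3 to 5 for CLP plus landiolol vs sham and 0 to 0 for CLP plus landiolol vs CLP, and the interaction stayed at 0 throughout. For CLP plus landiolol vs sham in females, where 4 passed, 0 passed with the slide row in the model and 8 at an FDR of 5%. The share of all genes that passed was not counted for these other settings, except without replicate 1 of the male CLP group. A count of members under them cannot be set against that share. Over the 14 single-gene effects that passed and 329 values under alternatives, 257 stayed past the threshold, 72 missed it with the same direction, and 0 reversed. The cause was not tested. The FDR of 5% was 1 of these alternatives and kept every call by design, since all 14 effects had passed 1%. Fits that left out 1 array share their other arrays with the main fit. In males the call was lost most often for Eif1a (16 of 24) in CLP plus landiolol vs sham and for Eif4b (15 of 23) after CLP. It was lost in 11 of 24 for Eif1ad in females, in 10 of 24 for Eif4b and 8 of 24 for Eif4ebp1 in male CLP plus landiolol vs sham, and in 8 of 23 for Eif4a1 after CLP. The other 8 effects were each lost at most in 1. No scaling moved the median of all genes by 0.1 or more. The median of the members after CLP ran from 0.15 (table of the authors) to 0.28 (detected spots as a term) in males. For CLP plus landiolol vs sham it ran from 0.00 to 0.11 in males and from 0.14 to 0.24 in females, with the same settings at the ends. Dim signal limits Eif4e1b, which was not measured, and Eif5a2, well above background on 4 of 6 male landiolol arrays. No paired analysis was possible because the labels carry no replicate number that groups share. The titles give each rat a code of its own that may be a day, and as no code recurs the codes form no batch that could be tested.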
